A study of Mus musculus with 6 samples.

Results

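The AP-1 genes Fos, Fosb, Fosl2, Jun, Junb and Jund and the immediate early genes Egr1, Ier2, Ier3 and Klf6 were compared between parental CT26.mMR1 cells and M8 cells. These 10 genes were taken by symbol from 24346 gene symbols, and all 10 were among the 10597 genes that had a mean of at least 1 FPKM and were tested. FPKM scales the reads of a gene to the length of its transcript and to the mapped reads of the library, so that levels can be compared between genes. CT26.mMR1 (CT26_cl9 in the labels) is a mouse colorectal tumor line to which mouse MR1, a molecule that presents small metabolites to MAIT cells, had been added by retrovirus. M8 was derived from it with the mutagen ENU, cloned by limiting dilution and picked for the response of MAIT reporter cells and for surface MR1. The selection for surface MR1 concerned the protein, and Mr1 RNA is given below. Both lines overexpressed MR1, and M8 stands for 1 clone. Each line had 3 biological replicates, and whether these were cultured and harvested on separate days is not given in the sources used here. The p-values below set the difference between the lines against the spread between these samples. They do not cover other clones.

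Immediate early genes are switched on within minutes of stimulation by serum, growth factors or stress, without the need for new protein. MAP kinases do this by way of factors such as SRF with its Elk partners and CREB, and most of the transcripts are short-lived. Fos and Jun proteins are bZIP factors that join as dimers named AP-1, whereas Egr1 and Klf6 are zinc finger factors. Because a change of medium, cold or detachment of cells can also induce these genes, their level in each replicate is given below.

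The estimated number of mapped reads, read from the steps between low FPKM values, was 23900000 to 27000000 in the parental replicates and 19400000 to 22000000 in M8. Across genes, Pearson's r of the log2 values was 0.9935 to 0.9952 between samples within a line and 0.989 to 0.992 between samples of different lines, with the genes not being independent. Mr1 was expressed at 1081 ± 51.0 FPKM (SD, n = 3) in parental cells and 1055 ± 34.7 in M8, and did not pass the test (limma adjusted p = 0.615). Of 10 markers of colon epithelium, 5, including Epcam and Cdh1, were listed at 0 in all 6 samples, and 2 (Krt18 and Krt20) had a mean of at least 1 FPKM. Of 7 mesenchyme markers 6 did, whereas none of the markers of leukocytes (7), endothelium (4) or red blood cells (4, of which 3 were in the files) did. Krt18 was at 24.5 to 38.4 FPKM and Krt20, a keratin of the gut lining, at 10.8 to 19.8 over the 6 samples. The labelled tissue, colon, thus had these markers present and the others at or near 0 (at most 0.117 FPKM). Of the mesenchyme markers, Vim was at 1751 to 2137 FPKM and Col1a2 at 456 to 505. Lum, the only one with a mean below 1 FPKM, was at 0.385 to 1.17.

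Fos, Fosb and Junb were lower in M8 and hold a searched motif before the start used. The matches of Fosb are given in words below. Fos and Junb are shown by the 250 bases before the annotated start (RefSeq, GRCm38.p6, read 5′ to 3′ on the strand of the gene). They cover chr12:85473640-85473889 (plus strand) and chr8:84978749-84978998 (minus strand). The short CRE is the core to which CREB and ATF proteins can bind. Capitals mark the short CRE TGACG and the TATA box TATAAA.
Fos: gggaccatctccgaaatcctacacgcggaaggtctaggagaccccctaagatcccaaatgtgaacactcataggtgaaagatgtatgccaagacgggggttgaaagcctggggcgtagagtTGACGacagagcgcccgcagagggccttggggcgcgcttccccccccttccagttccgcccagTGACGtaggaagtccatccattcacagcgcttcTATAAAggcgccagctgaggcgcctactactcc
Junb: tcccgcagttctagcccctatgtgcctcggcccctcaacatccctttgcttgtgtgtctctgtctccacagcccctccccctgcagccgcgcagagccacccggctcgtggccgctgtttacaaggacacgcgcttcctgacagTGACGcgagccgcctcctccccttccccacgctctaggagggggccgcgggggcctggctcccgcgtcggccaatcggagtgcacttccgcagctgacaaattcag

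The RefSeq table held a window of 300 bases, 250 before and 50 after the start, for 8 of the 10 members (all except Egr1 and Ier2). Both strands were searched. TGACG was found in 3 of the 8 windows, starting 129 and 66 bases upstream of the start in Fos, 60 in Fosb and 106 in Junb, and in 20.8% of all 32851 windows. TATAAA was found in 2, at 33 bases upstream in Fos and at the start itself in Junb, against 13.6% of all windows. In Fosb, the window uses the start at 19310045, whereas the RefSeq gene reaches to 19310118, so that 73 of the 250 bases before that start lie inside the gene and its matches are upstream of that start only. The Egr site, searched as GCGGGGGCG or GCGTGGGCG, was found at 50 bases upstream of this start in Fosb and at 79 in Fosl2, against 3.47% of all windows. The whole CRE TGACGTCA, which contains TGACG, was in none of the 8 windows and in 1.79% of all. The AP-1 site TGAGTCA or TGACTCA was likewise in none of the 8 and in 5.2% of all, and the CArG box, to which SRF binds, in none of the 8 and in 1.63%. A match is a run of letters and not a site shown to be bound. Variants of these motifs and sites more than 250 bases before the start were not searched, so the absences do not cover them. They also do not cover Egr1 and Ier2, which had no window.

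Fos, Fosb, Junb, Egr1 and Klf6 were lower in M8, and no member was higher. A gene was called where limma on log2(FPKM + 1), adjusted by the Benjamini-Hochberg method over all 10597 genes, gave an adjusted p below 0.1. By this rule 5 of 10 members were lower, against a background of 16.5% of all genes tested, and 0 were higher, against 21.2% (0 also at an unadjusted p below 0.05). In each of the 5, all 3 M8 values lay below all 3 parental values, as they did in 20.4% of all genes, whereas M8 lay wholly above in no member and in 24.8% of all genes. Over all genes, 56.3% of calls were higher in M8, against 42.9% when the values were rescaled to TPM and 34.7% with upper-quartile scaling. With the latter, 8 members were lower, against 26.1% of all genes. At an adjusted p below 0.05, 3 members were lower, against 11.3% of all genes. With a mean of at least 5 FPKM, which left out Fos and Fosb, 3 of 8 were lower, against 16.2%. Without parental replicate 3, M8 replicate 2 or M8 replicate 3, 3 of 10 were lower, against 14.1%, 11.8% and 12.9% of all genes, and without parental replicate 1, 7 were, against 15.9%. The mean was lower in M8 in 9 members and higher in 1 (Jund). The median log2 fold change was -0.13 over the members and 0.0069 over all genes. An exact two-sided permutation test gave p = 0.1 for each of the 5, the smallest that 3 samples against 3 allow, and 0.2 to 1.0 for the others. In bulk RNA, fewer cells that express a gene and less RNA per cell cannot be told apart.

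**Figure D1:**
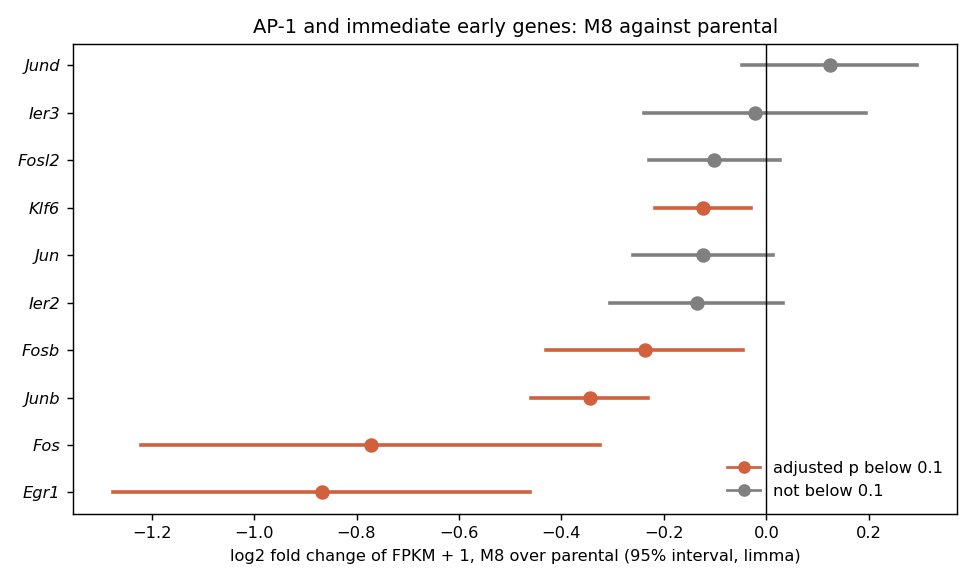
Log2 fold change of each gene, M8 against parental, on the log2(FPKM + 1) scale, with its 95% interval from limma and n = 3 samples in each line. The intervals of Fos, Fosb, Junb, Egr1 and Klf6 lie below 0, and that of Jund, the only gene with a higher mean in M8, spans 0.

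**Figure D2:**
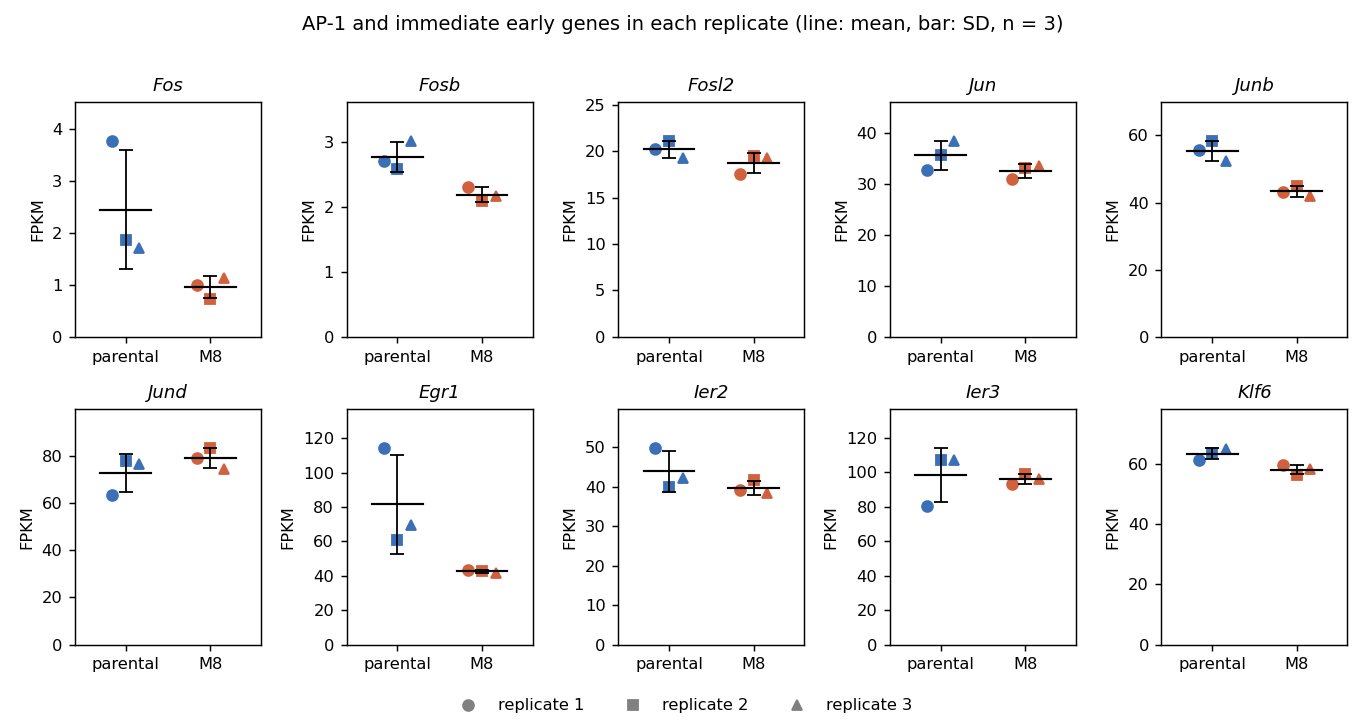
FPKM of the 10 genes in each replicate of the parental and M8 cells, with the mean as a line, the SD as a bar and an axis from 0 in each panel. Replicate 1 of the parental cells is the highest point for Fos (3.78), Egr1 (114) and Ier2 (49.7) and the lowest for Ier3 (80.5) and Jund (63.4).

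Fos, the founding member of its family, was the least expressed member. Its level was 3.78, 1.86 and 1.72 FPKM in parental replicates 1, 2 and 3 and 1.01, 0.734 and 1.14 in M8 replicates 1, 2 and 3. All M8 samples were below all parental samples, and parental replicate 1 stood apart above the other two. The mean fell by 60.8%, from 2.45 ± 1.15 to 0.961 ± 0.208 FPKM (SD, n = 3), with a log2 fold change of -0.77 (SE 0.20, limma adjusted p = 0.0192). The added 1 FPKM makes this fold change smaller than that of the FPKM themselves. Without parental replicate 1 it was -0.51 (limma adjusted p = 0.0221). The values rest on few reads, an estimated 181, 85 and 89 in the parental replicates and 42, 27 and 46 in M8, for which counting error alone is 7.4% to 19%. Fos lies on chromosome 12 from 85473890 to 85477274 (GRCm38.p6) and has 4 exons.

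Fosb, a close relative of Fos, was expressed at 2.70, 2.58 and 3.02 FPKM in parental cells and at 2.31, 2.09 and 2.17 in M8. The lines did not overlap, and no replicate stood apart. The mean was 2.76 ± 0.226 in parental cells and 2.19 ± 0.113 in M8, with a log2 fold change of -0.24 (SE 0.086, limma adjusted p = 0.0660). The call was lost without parental replicate 3 (-0.19, limma adjusted p = 0.161), M8 replicate 2 (0.159) or M8 replicate 3 (0.130). Fosb spans 19302696 to 19310118 on chromosome 7, with 4 exons.

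Fosl2 encodes Fra-2, a Fos protein that lacks a strong activation domain. It was measured at 20.2, 21.1 and 19.3 FPKM in parental cells and at 17.5, 19.5 and 19.2 in M8. The lowest 2 values of all were in M8, but the lines overlapped. The log2 fold change was -0.10, with an interval of -0.23 to 0.026 (limma adjusted p = 0.207). Fosl2 spans 32136472 to 32157840 on chromosome 5.

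Fosl1 (Fra-1), the remaining Fos relative, moved the other way. It was expressed at 28.7, 30.3 and 33.4 FPKM in parental cells and at 39.1, 36.6 and 37.6 in M8, with no overlap. The log2 fold change was 0.29 (limma adjusted p = 0.00659). The summed FPKM of Fos, Fosb and Fosl2 was 25.4 ± 1.36 in parental cells and 21.9 ± 0.920 in M8. With Fosl1 added, the sum was 56.2 ± 1.02 in parental cells and 59.7 ± 0.699 in M8. The share of Fosl1 in this sum was 54.8% ± 3.20 in parental cells and 63.3% ± 1.68 in M8 (SD, n = 3), and all 3 M8 shares were above all 3 parental shares. These sums and shares are descriptions and were not tested.

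**Figure D3:**
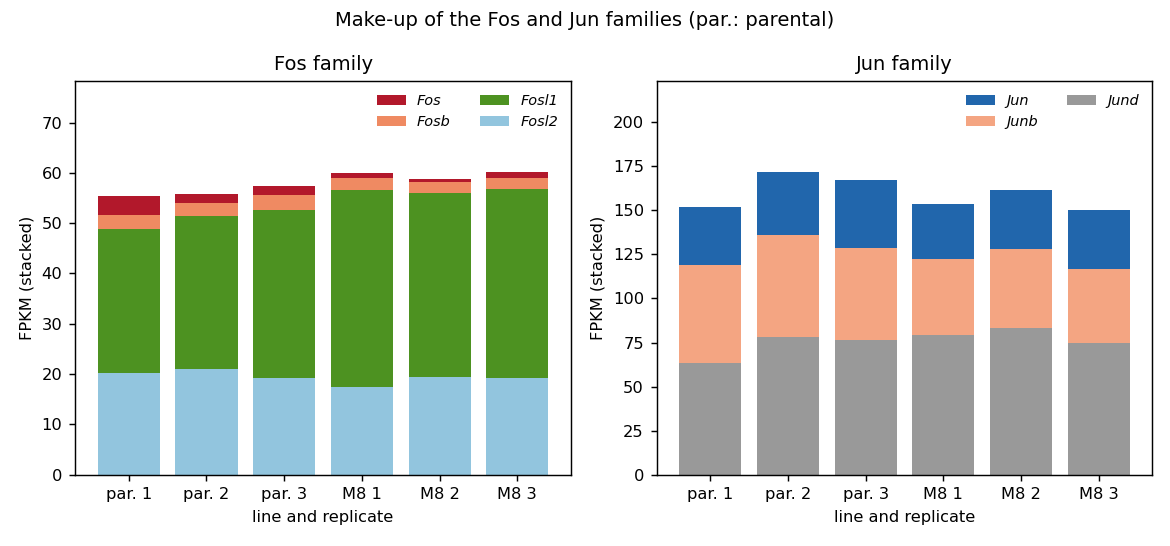
FPKM of the Fos family genes (left, with Fosl1) and the Jun family genes (right), stacked for each replicate of both lines on axes from 0. Fosl1 takes a larger share of the Fos family in M8 (63.3% against 54.8%) and Junb a smaller share of the Jun family (28.0% against 33.9%).

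Junb, a Jun protein that activates more weakly than Jun at many sites, was the Jun family member that passed the test. It was expressed at 55.7, 58.2 and 52.3 FPKM in parental cells and at 43.2, 45.1 and 41.9 in M8. The lines were apart by more than the range within either. The mean fell by 21.7%, from 55.4 ± 2.99 to 43.4 ± 1.61 FPKM (SD, n = 3), with a log2 fold change of -0.35 (SE 0.051, limma adjusted p = 0.00170). The call held in all 17 alternative analyses, with an adjusted p of 0.000968 to 0.0122 in limma. Junb, a gene of 1 exon, lies at 84976909 to 84978748 on chromosome 8.

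Jun, which encodes c-Jun, the partner of Fos in the classical AP-1 dimer, was expressed at 32.9, 35.7 and 38.5 FPKM in parental cells and at 31.1, 33.2 and 33.6 in M8. Parental replicate 1 was below 2 of the 3 M8 samples, so the lines overlapped. The log2 fold change was -0.12, with an interval of -0.26 to 0.013 (limma adjusted p = 0.157). It was called without parental replicate 1 (-0.18, limma adjusted p = 0.0438). Jun has 1 exon, on chromosome 4 from 95049036 to 95052222.

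Jund, which is expressed in most resting cells and depends less on stimulation, was measured at 63.4, 77.9 and 76.6 FPKM in parental cells and at 79.1, 83.2 and 74.6 in M8. Parental replicate 1 was the lowest sample, and M8 replicate 3 lay below both other parental replicates. The log2 fold change was 0.12, with an interval of -0.047 to 0.29 (limma adjusted p = 0.252). Jund lies at 70697739 to 70700616 on chromosome 8, and the transcript used for its length has 1 exon. The sum of the Jun family was 163.7 ± 10.4 FPKM in parental cells and 155.0 ± 5.86 in M8, and the share of Junb in it was 33.9% ± 2.71 and 28.0% ± 0.141.

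Egr1, a zinc finger factor induced through SRF and Elk proteins, showed the largest log2 fold change of the 10 genes on the log2(FPKM + 1) scale, whereas Fos had the larger percentage fall in FPKM. Its level was 114, 60.7 and 69.6 FPKM in parental cells and 43.2, 43.0 and 41.4 in M8. Parental replicate 1 was far above the others, the remaining parental replicates were still above all of M8, and the M8 replicates lay close together. The mean fell by 47.8%, from 81.5 ± 28.6 to 42.5 ± 0.983 FPKM (SD, n = 3), with a log2 fold change of -0.87 (SE 0.18, limma adjusted p = 0.00770). Without parental replicate 1 the log2 fold change was -0.60 (limma adjusted p = 0.000809), and the M8 mean was 0.653 times the mean of the other parental replicates. In Fos the same ratio was 0.537, and in Junb 0.785. Egr1 spans 34861207 to 34864956 on chromosome 18, with 3 exons.

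Klf6, a Krüppel-like factor, had the smallest change among the called members. It was measured at 61.6, 63.9 and 65.1 FPKM in parental cells and at 59.8, 56.6 and 58.3 in M8. The lines did not overlap, although the lowest parental and highest M8 values were near each other. The mean fell by 8.35%, from 63.5 ± 1.79 to 58.2 ± 1.59 FPKM (SD, n = 3), with a log2 fold change of -0.12 (SE 0.042, limma adjusted p = 0.0521). The call was lost without parental replicate 2 (limma adjusted p = 0.118), parental replicate 3 (0.116), M8 replicate 2 (0.170) or M8 replicate 3 (0.113). Klf6 lies on chromosome 13 from 5861489 to 5870393 and has 4 exons.

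Ier2, a nuclear protein that is induced together with Fos, was expressed at 49.7, 39.8 and 42.1 FPKM in parental cells and at 39.0, 41.5 and 38.3 in M8. Parental replicate 1 was again the highest, and the other samples of both lines were intermixed. The log2 fold change was -0.14, with an interval of -0.30 to 0.032 (limma adjusted p = 0.202). It was called without parental replicate 2 (-0.20, limma adjusted p = 0.0835), and was -0.045 without parental replicate 1 (0.554). Ier2 is a gene of 1 exon on chromosome 8 (84661331 to 84662852).

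Ier3, which encodes a short-lived protein linked to cell survival and to ERK signaling, was the most expressed member. It was measured at 80.5, 107.4 and 107.3 FPKM in parental cells and at 93.4, 99.0 and 95.9 in M8. All M8 values lay between parental replicate 1, the lowest sample, and the other parental replicates. The log2 fold change was -0.022, with an interval of -0.24 to 0.20 (limma adjusted p = 0.884). This value rested on each parental replicate. Without parental replicate 1, Ier3 was called lower in M8 (-0.16, limma adjusted p = 0.0235), and without parental replicate 2 or 3 the log2 fold change was 0.0468 and 0.0465 (limma adjusted p = 0.774 and 0.762). Ier3 has 2 exons, at 35821713 to 35822911 on chromosome 17.

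By mean FPKM, the order in parental cells was Ier3, Egr1, Jund, Klf6, Junb, Ier2, Jun, Fosl2, Fosb and Fos. The ranges of the first 4 overlapped from each to the next, as did those of Fosb and Fos, and the other neighbours did not overlap. In M8, Egr1 came after Ier3, Jund, Klf6 and Junb, and the rest kept their order. There the ranges of Junb and Egr1 and of Egr1 and Ier2 overlapped, whereas Ier3 was apart from Jund. The levels ran from 2.45 to 98.4 FPKM in parental cells and from 0.961 to 96.1 in M8.

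The replicates of the parental cells differed most in Fos and Egr1. The coefficient of variation between parental replicates was 46.8% for Fos and 35.1% for Egr1, and only 0.321% and 0.812% of all tested genes had a larger one. It was 15.7% for Ier3, 11.8% for Ier2 and 11.0% for Jund, against a median of 5.62% over all genes. In M8 it was 21.6% for Fos and 2.31% to 5.68% for the other members, against a median of 4.42%.

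Parental replicate 1 was higher than the mean of the other parental replicates by a factor of 2.11 in Fos, the fifth highest ratio of the 10597 genes, and of 1.75 in Egr1. In Ier2 the ratio was 1.21. The members did not move together in this sample, since the ratio was 0.750 in Ier3, 0.821 in Jund and 0.886 in Jun, and 0.955 to 1.01 in Fosb, Fosl2, Junb and Klf6. This sample was the highest parental replicate in 3 members (30.0%) and the lowest in 4 (40.0%), near the 33.3% and 36.9% of all genes. The numbers of tested genes at least 1.5 times above the other replicates of their line were 60, 40 and 63 in the parental replicates and 59, 70 and 72 in M8. By this count, which covers only values above the other replicates, parental replicate 1 did not stand apart over all genes. Its summed FPKM was the lowest, 593635 against 614741 to 630264 in the other samples. The number of genes above 0 was highest there, 14357 against 13747 to 14244. No label gives a handling or harvest variable, and the part of handling in these values was not tested.

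**Figure D4:**
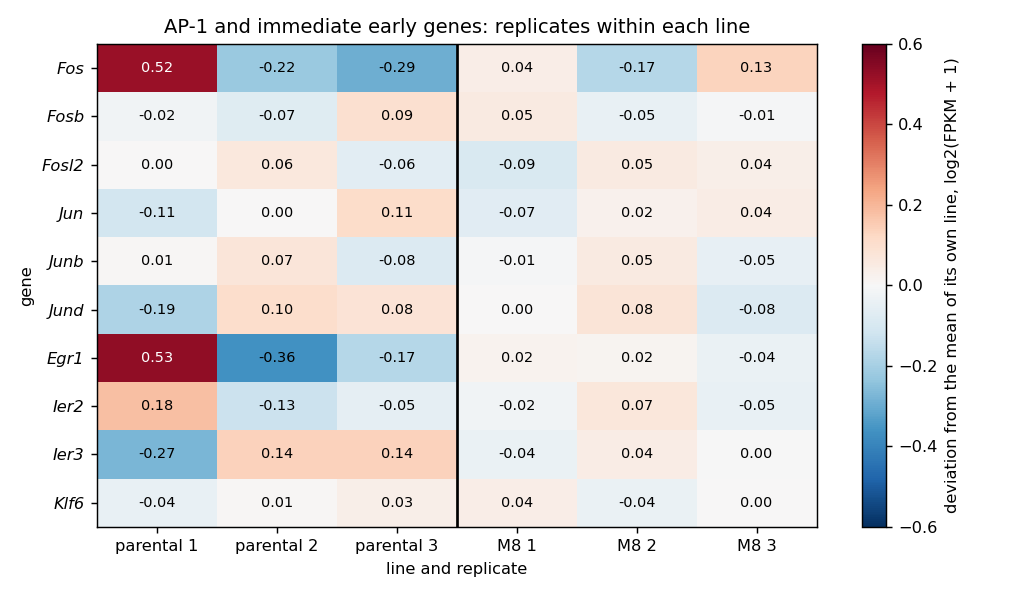
Deviation of each replicate from the mean of its line on log2(FPKM + 1), for the 10 genes (rows) and the 6 samples (columns). Parental replicate 1 deviates by 0.52 in Fos and 0.53 in Egr1 but by -0.27 in Ier3 and -0.19 in Jund.

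Other genes of the response were described from 6 lists. Of 33 tested immediate early genes outside the 10 (38 listed), 10 were lower in M8 (30.3%, against 16.5% of all genes) and 5 higher (15.2%, against 21.2%), with a median log2 fold change of -0.042. The largest changes past the threshold were in Klf2, a Krüppel-like factor (21.5 ± 4.45 FPKM in parental cells, 13.0 ± 0.995 in M8, log2 fold change -0.67, limma adjusted p = 0.00396), Klf10, a TGF-β induced factor (-0.51, limma adjusted p = 0.00192), and Rhob, a small GTPase (-0.47, limma adjusted p = 0.000737). The 5 higher genes were Ier5l, Ctgf, Mcl1, Errfi1 and Rnd3. Unlike Fos and Egr1, 22 of the 33 genes (66.7%) were lowest in parental replicate 1 among the parental samples, against 36.9% of all genes. In parental replicate 3, 20 of the 33 were highest (60.6%, against 36.4% of all genes).

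Of 23 tested heat shock and dissociation genes, often induced when cells are detached or chilled, 8 were lower in M8 (34.8%, against 16.5% of all genes) and 5 higher (21.7%, against 21.2%). Cebpb, a bZIP factor of the inflammatory response, was higher in M8 (0.72, limma adjusted p = 0.00498), as was the metallothionein gene Mt2 (0.51, limma adjusted p = 0.000299). Id2, which inhibits helix-loop-helix factors, was lower (-0.57, limma adjusted p = 0.00191). Mt1, Cebpd and Ppp1r15a were the other higher genes. In parental replicate 1, 6 of the 23 (26.1%) were highest and 8 (34.8%) lowest among the parental samples, near the 33.3% and 36.9% of all genes.

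Of 11 tested bZIP genes that can join the AP-1 network (16 listed), 6 were higher in M8 (54.5%, against 21.2% of all genes) and 1 lower (9.09%, against 16.5%). The higher genes were Fosl1, Atf1, Batf2, Jdp2, Maff and Mafk. Batf2, a partner of Jun proteins, had a log2 fold change of 0.26 (limma adjusted p = 0.0278). The lower gene was Crem, a CREB relative (-0.41, limma adjusted p = 0.0659). Of 26 tested kinases and factors upstream, 5 were higher (19.2%) and 4 lower (15.4%), shares near those of all genes (21.2% and 16.5%). The kinase genes Rps6ka2 (0.35, limma adjusted p = 0.00173) and Map2k3 (0.25, limma adjusted p = 0.00370) were among the higher genes, as were Map2k2 and Rps6ka4. Mapk9, which encodes the Jun kinase JNK2, was lower (-0.42, limma adjusted p = 0.00209), as were Mapk12, Rps6ka3 and Elk3.

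The MAP kinase phosphatases, which switch the kinases off, had 2 higher and 2 lower genes of 10, shares near those of all genes (21.2% and 16.5%). Dusp9 (0.53, limma adjusted p = 0.00124) and Dusp8 were higher. Dusp1 (-0.33, limma adjusted p = 0.0532), whose lines overlapped, and Dusp4 (-0.15, limma adjusted p = 0.0251) were lower. Parental replicate 1 was the lowest parental sample in 7 of the 10 (70.0%, against 36.9% of all genes).

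Of 21 tested genes often described as regulated through AP-1 sites (26 listed), 8 were lower in M8 (38.1%, against 16.5% of all genes) and 1, Ccnd1, was higher (4.76%, against 21.2%). The median log2 fold change was -0.18. The collagenase gene Mmp13 was at 4.40 ± 0.639 FPKM in parental cells and 1.96 ± 0.0891 in M8 (-0.86, limma adjusted p = 0.000563). Areg, a ligand of the EGF receptor, was at 33.9 ± 4.70 and 19.4 ± 0.931 FPKM (-0.76, limma adjusted p = 0.000672). The cytokine gene Il11 was at 3.81 ± 0.509 and 1.87 ± 0.278 FPKM (-0.74, limma adjusted p = 0.00163). Parental replicate 1, in which Fos and Egr1 were highest, was the lowest parental sample in 16 of these 21 genes (76.2%, against 36.9% of all genes). Whether AP-1 acts on these genes here was not tested.

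**Figure D5:**
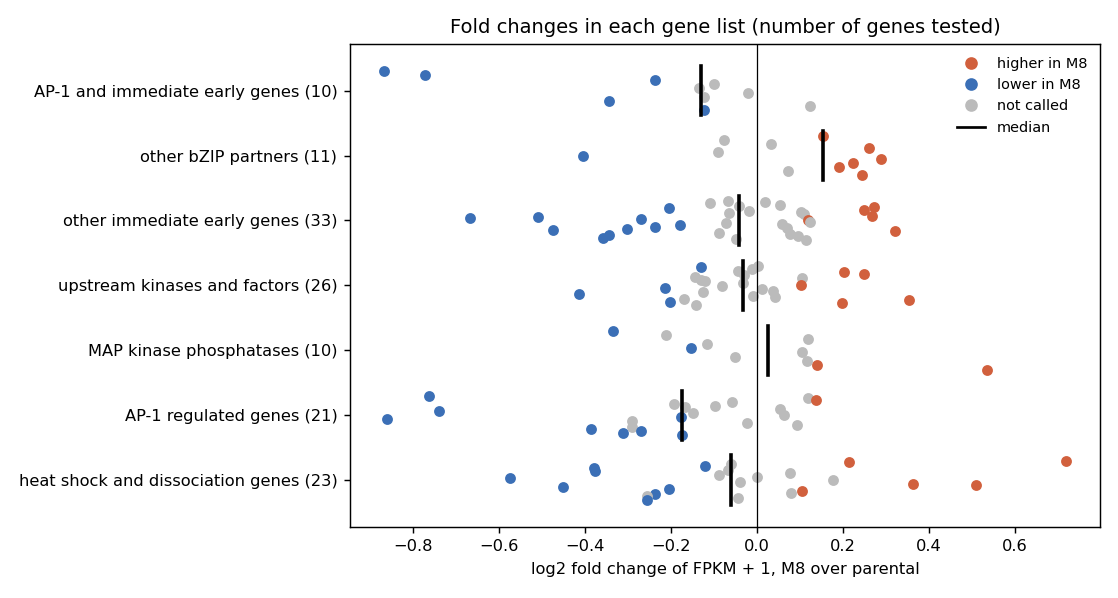
Log2 fold change, M8 against parental on log2(FPKM + 1), of each tested gene in the 10 members and the 6 other lists, with calls at a limma adjusted p below 0.1 marked. The median is -0.13 in the members, -0.18 in AP-1 regulated genes and 0.15 in other bZIP partners, against 0.0069 over all genes tested.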

How the data were processed

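RNA was measured by stranded mRNA sequencing, with single reads of 101 bases, in 3 parental and 3 M8 samples. The authors mapped the reads to mm10 and deposited FPKM values per gene symbol. The submitters' processing notes name TopHat2 2.1.1, Bowtie2 2.2.8, SAMtools 0.1.18 and Cuffdiff 2.2.1, and the study's methods name another TopHat version. The annotation and any filter on low values are not given in the sources used here. FPKM values are not counts, so no count model was fitted, and depth was estimated from the steps between low values, which were found in 59.7% of the low genes examined.

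From the deposited FPKM, log2(FPKM + 1) was fitted with limma 3.58.1 in R 4.3.3 (lmFit, eBayes with trend, no covariates) for genes with a mean of at least 1 FPKM, with Benjamini-Hochberg adjustment over all of them and a threshold of 0.1. Intervals are 95% limma intervals. The fit was tested on simulated data. Single genes were compared by exact two-sided permutation of mean FPKM. Same-numbered replicates did not deviate together (r = 0.1, -0.106 and -0.033), so the main fit has no block.

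The members and lists were chosen with earlier results of these data known. Named from each other list were the 3 genes with the largest fold change past the threshold, and all genes behind a count of 5 or fewer, except 1 that is not reported here. The short CRE and the Egr site were added after the other 4 motifs had been searched. Gene positions and promoters came from RefSeq (GRCm38.p6), which shares its coordinates with mm10, and exon numbers from 1 GENCODE transcript per gene, the longest matched to RefSeq. Alternatives were other pseudocounts, filters, scalings and thresholds, eBayes without trend, a replicate block, and each replicate left out. The other software was Python 3.11.15 with matplotlib 3.10.9, scipy 1.17.1 and pandas 2.3.3.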

Additional observations from a re-analysis of the deposited data

How the results depend on the processing

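Fos, Junb and Egr1 stayed called lower under every alternative in which they were tested, and Jund was never called. A mean of at least 5 FPKM dropped Fos and Fosb from the test and left 3 members lower. With an adjusted p below 0.05, 3 members were lower, and Fosb (-0.24) and Klf6 (-0.12) lost their call. Upper-quartile scaling called 8 members lower, among them Fosl2 (-0.16), Jun (-0.18) and Ier2 (-0.20), with 1470 genes higher and 2769 lower in all. Jun was also called with TPM (-0.16) and quantile normalization (-0.17), and the latter lost Fosb (-0.16). The cause of these changes was not tested.

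With the replicate number as a replicate block, Jun was called (-0.12, limma adjusted p = 0.0886) and 6 members were lower, against 15.9% of all genes. In the pairing check, same-numbered samples did not deviate together, and the labels name nothing else that they share. The block left 1 MAP kinase phosphatase higher and moved no other count by over 1.5 times.

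With each replicate left out in turn, Ier3 went from -0.16 to 0.047, reversed to 0.0468 without parental replicate 2 and to 0.0465 without parental replicate 3. The other ranges were -0.92 to -0.51 in Fos, -0.27 to -0.19 in Fosb, -0.13 to -0.056 in Fosl2, -0.18 to -0.069 in Jun, -0.39 to -0.31 in Junb, 0.030 to 0.18 in Jund, -1.05 to -0.60 in Egr1, -0.20 to -0.045 in Ier2 and -0.15 to -0.10 in Klf6. Between 3 (without parental replicate 3, M8 replicate 2 or M8 replicate 3) and 7 (without parental replicate 1) members were lower and 0 higher, and over all genes 1591 to 2100 were higher and 1142 (without M8 replicate 1) to 1681 lower.

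In the lists, leaving out a replicate gave 4 to 6 bZIP partners higher and 0 to 1 lower (0 without parental replicate 3, M8 replicate 1 or M8 replicate 2), 3 to 6 other immediate early genes higher (3 without M8 replicate 2) and 9 to 11 lower, and 4 to 5 upstream kinases and factors higher and 2 (without parental replicate 2) to 4 lower. It gave 1 to 3 phosphatases higher (1 when any replicate other than parental replicate 3 was left out) and 1 to 3 lower (1 without parental replicate 2 or 3 or M8 replicate 2 or 3). AP-1 regulated genes were higher in 1 to 2 (2 without M8 replicate 1) and lower in 7 to 11, and heat shock and dissociation genes higher in 3 (without parental replicate 2 or M8 replicate 2) to 5 and lower in 6 to 10. Crem, the bZIP partner counted as lower, was lost (0 lower) without a filter, with a mean of at least 5 FPKM, with quantile normalization and with an adjusted p below 0.05. Phosphatases had 1 higher without a filter, with TPM, with upper-quartile scaling and with an adjusted p below 0.05, and 1 lower without a filter and with an adjusted p below 0.05. AP-1 regulated genes had 0 higher with upper-quartile scaling and with quantile normalization, and heat shock and dissociation genes 3 higher with upper-quartile scaling. Depth limits Fos most, at 27 to 181 estimated reads.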

Other observations

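Genes whose replicates deviated most like the mean of the 10 members were ranked by Pearson's r over the 6 samples, among 8539 genes with a mean of at least 5 FPKM. In parental replicate 1 this mean (0.061 on log2(FPKM + 1)) was carried by Fos (0.52), Egr1 (0.53) and Ier2 (0.18), while Ier3 (-0.27), Jund (-0.19) and Jun (-0.11) deviated the other way, so it does not stand for all 10. The highest were Parp8 (r = 0.993), Cyb5b (0.992), Inpp5b (0.989), Mid1 (0.987) and Sf3b3 (0.987). High r values are expected for the highest of so many genes over 6 values. The mean member deviation was near 0 in M8 (-0.0068, 0.0077 and -0.001), so r rests mostly on the parental replicates. The 6 values come from the same libraries as the members, and the ranking is a description. Parp8, an ADP-ribosyltransferase family member, was at 9.18, 7.60 and 7.98 FPKM in parental replicates 1, 2 and 3 and at 7.09, 7.42 and 7.16 in M8. Sf3b3, a splicing factor subunit, was at 63.9, 56.7 and 57.2 FPKM in parental cells and at 64.4, 65.7 and 64.2 in M8. Sf3b3 was called higher in M8 (0.13, limma adjusted p = 0.0908), whereas Parp8 was not called (-0.17, limma adjusted p = 0.111).

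Of 8547 genes with a mean of at least 5 FPKM, 9 were at least 1.5 times higher in parental replicate 1 than the mean of the other parental replicates, against 6 and 15 for the other parental replicates and 9 to 15 in M8. Besides Egr1 they include Malat1, a nuclear noncoding RNA chosen here after its values were seen, at 32.2, 11.7 and 7.88 FPKM in parental cells and at 5.73, 7.01 and 6.60 in M8.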
